A study of Mus musculus with 8 samples.

Results

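The 46 genes described here are the core machinery of mitosis and cytokinesis. They were listed by name and role, and no measured value enters the rule: chromosome structure (Mki67, Top2a, Smc2, Smc4, Ncapd2, Ncapg, Ncaph), cyclins with Cdk1 and its phosphatases (Ccna2, Ccnb1, Ccnb2, Cdk1, Cdc25b, Cdc25c), transcription factors (Foxm1, Mybl2), mitotic kinases (Plk1, Aurka), the chromosomal passenger complex (Aurkb, Birc5, Incenp, Cdca8), the spindle checkpoint (Bub1, Bub1b, Mad2l1, Ttk), the centromere and outer kinetochore (Cenpa, Cenpe, Cenpf, Ndc80, Nuf2, Spc24, Spc25), the spindle (Kif11, Kif2c, Kif4, Tpx2, Prc1), cytokinesis (Kif20a, Kif23, Racgap1, Ect2, Anln), and anaphase ubiquitination and separation (Cdc20, Ube2c, Pttg1, Espl1). For each gene the strongest ATAC-Seq peak interval within 1 kb of any transcription start site (TSS) was taken as its promoter, and the other intervals over the gene body and 10 kb on each side were listed separately. All 46 had a promoter interval in all 8 peak lists, which held for 13200 of 21911 coding genes.

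Open chromatin was profiled by bulk ATAC-Seq, in which the transposase Tn5 cuts accessible DNA, in hepatocytes of C57BL/6 mice (males of the C57BL/6J substrain, per the study's methods) aged 10 to 12 weeks and kept on a normal diet. Hepatocytes came from undamaged liver (0 h) or from liver 48, 72 or 96 h after partial hepatectomy (PHx), surgery that takes away some of the lobes, and were released by collagenase perfusion. There were 2 libraries per time point, and the labels name no transgene or deletion. Further libraries described in the study's text were not analysed here.

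The lists held 105206 to 154577 distinct intervals per library and no read counts, so the depth behind an interval is unknown. Promoter strength was therefore the rank of its interval by −log10 p within the library, where rank 1 is the strongest. Of 10 hepatocyte marker promoters all were listed at 0 h, but the Alb promoter was missing from 5 of the 6 PHx libraries. Of the markers of other liver cells, 4 of 6 for Kupffer cells and macrophages and 5 of 6 for lymphocytes had no interval in any library, and the remaining ones never reached the 50000 strongest. Endothelial markers reached the 50000 strongest at 0 or 1 of 6 promoters per library, stellate cell markers at 3 of 6 in every library and cholangiocyte markers at 1 to 3 of 5.

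Loss of liver mass after PHx is made up mainly by division of the remaining hepatocytes, which pass through S phase before mitosis, and many hepatocytes are polyploid. Transcription of mitotic genes is held back in resting cells by the DREAM complex and driven in G2 by B-Myb and FoxM1 together with the MuvB core, which docks at the cell cycle genes homology region (CHR). NF-Y, which binds CCAAT boxes, often acts a few turns of the helix upstream of it.

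The promoter sequence that stands for the largest difference among the members is that of Cdc20, the activator that lets the anaphase-promoting complex (APC/C) degrade securin and cyclin B. It is printed first, followed by the CCAAT-to-CHR stretches of Ube2c, Top2a and Espl1, whose promoters ranked lower in all 6 PHx libraries than in both at 0 h, and of Cdk1, Kif11 and Mki67, whose libraries showed no such order. They are shown because the same arrangement of motifs occurred in the promoter that ranked higher after PHx and in those that ranked lower. The order of PHx and 0 h libraries given here is by rank among all intervals. Top2a lost it by percentile within the list, by rank among coding promoters and by fold enrichment over the library median. Ube2c lost it by percentile, and Cdk1 had it by fold enrichment. Sequences are from RefSeq on GRCm38.p6, 5′ to 3′ along the gene's strand. Capitals mark the CCAAT box (CCAAT, or ATTGG on the other strand) and the CHR (TTTGAA, or TTCAAA on the other strand). In the short stretches they mark 1 pair only, the CHR nearest the RefSeq start that has a CCAAT box within 60 bases upstream and the nearest such box, and other matches stay in lower case. The Cdc20 entry is the 190 bases before the RefSeq start at chr4:118437344-118437533, minus strand.
Cdc20: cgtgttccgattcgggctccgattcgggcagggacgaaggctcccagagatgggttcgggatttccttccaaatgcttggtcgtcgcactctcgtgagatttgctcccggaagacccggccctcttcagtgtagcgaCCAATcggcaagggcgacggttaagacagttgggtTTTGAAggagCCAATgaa
Ube2c (chr2:164769864-164769913, plus strand): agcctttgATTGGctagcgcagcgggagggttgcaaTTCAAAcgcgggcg
Top2a (chr11:99024199-99024255, minus strand): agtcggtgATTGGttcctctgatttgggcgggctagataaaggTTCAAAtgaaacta
Espl1 (chr15:102296241-102296279, plus strand): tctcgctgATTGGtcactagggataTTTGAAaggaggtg
Cdk1 (chr10:69352914-69352968, minus strand): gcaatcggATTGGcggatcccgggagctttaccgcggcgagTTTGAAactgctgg
Kif11 (chr19:37376329-37376376, plus strand): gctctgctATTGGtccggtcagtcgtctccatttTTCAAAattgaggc
Mki67 (chr7:135716464-135716528, minus strand): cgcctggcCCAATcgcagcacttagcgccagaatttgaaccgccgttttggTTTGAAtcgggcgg

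In undamaged liver the mitotic promoters were already open. Their median rank was 8848 and 8283 in the 2 libraries, against 10884 and 10264 for all 13200 coding promoters with an interval in every list. Measured within coding promoters, 29 and 27 of the 46 lay above the median promoter. With coding promoters split into 4 equal classes by mean rank at 0 h, 11 members were in the strongest class, 18 in the next, then 11, and 6 in the weakest.

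The strongest was Ccna2, which encodes cyclin A2, the partner of Cdk2 and Cdk1 in S and G2 phase (chr3:36564865-36572150, minus strand, mm10). Its interval ranked 12 and 12 at 0 h, 23 and 17 (48 h), 24 and 25 (72 h), then 19 and 43 (96 h). All 6 PHx libraries thus ranked it below both 0 h libraries while it stayed near the very top of the lists. On another scale the order turned at 48 and 96 h, and at 72 h the libraries overlapped those at 0 h. The fold enrichment of its interval divided by the library's median over coding promoters was 2.95 and 2.75 at 0 h and 3.21 and 3.06 at 48 h. It was 3.05 and 2.80 at 72 h, then 3.17 and 2.98 at 96 h. Mad2l1, a checkpoint protein that inhibits Cdc20 until chromosomes are attached, came next with ranks of 213 and 43 at 0 h, 217 and 420 (48 h), 251 and 193 (72 h), then 702 and 143 (96 h). Its 48 h libraries did not overlap those at 0 h, while those at 72 and 96 h did. Ndc80, the microtubule-binding subunit of the outer kinetochore, ranked 679 and 547 at 0 h, 520 and 1040 (48 h), 693 and 543 (72 h), then 1090 and 409 (96 h), with overlap at every time. At the other end, the interval of Aurkb, the kinase of the chromosomal passenger complex, ranked between 29627 and 90616 in the 8 libraries, and that of Ccnb2, a B-type cyclin, between 31186 and 58840.

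**Figure D1:**
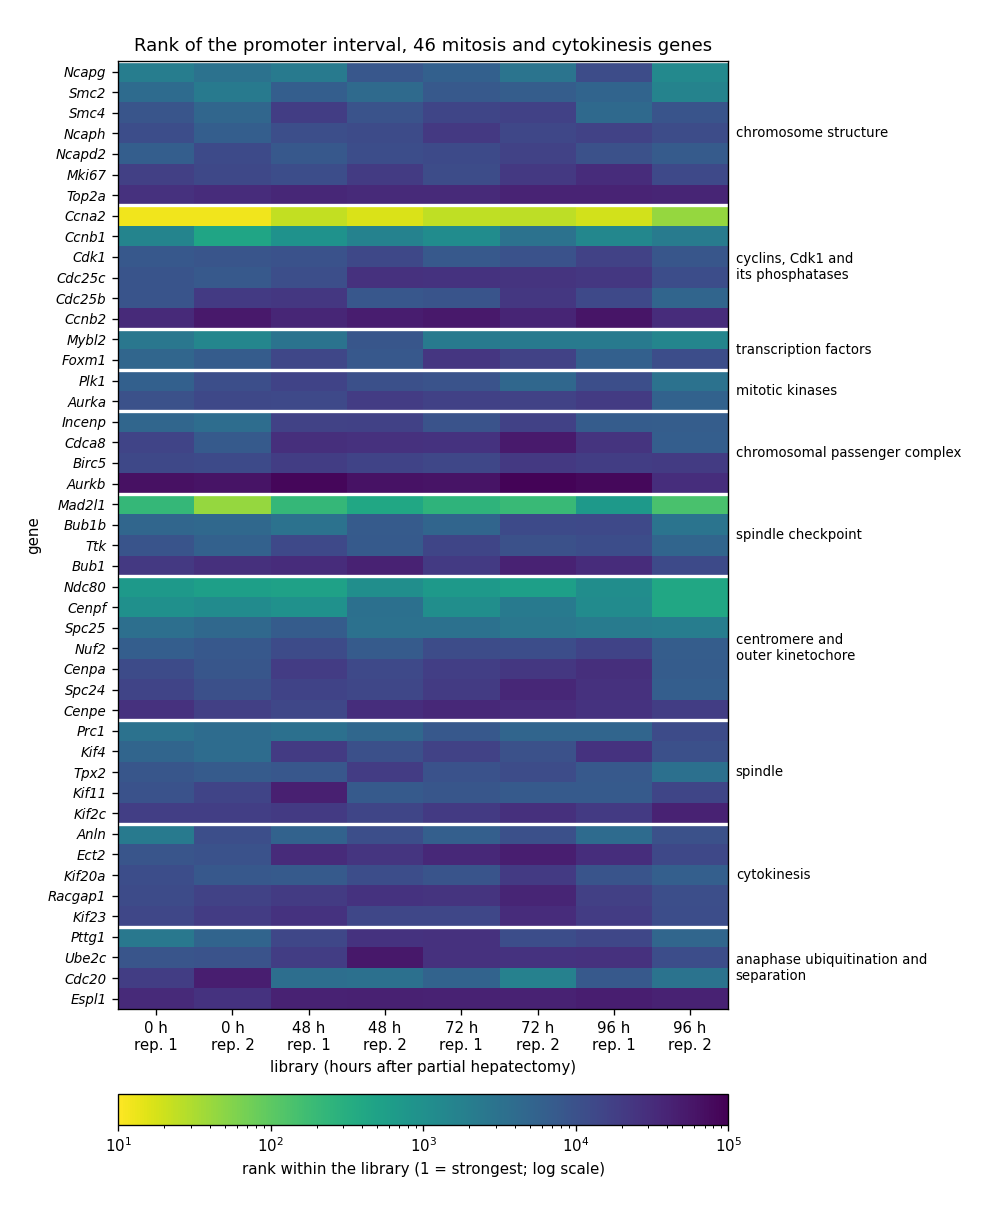
Rank of the promoter interval of each of the 46 genes (rows, grouped by role and ordered within a group by mean rank at 0 h) in each of the 8 libraries (columns); the colour scale is logarithmic and yellow is strongest. Ccna2 stays between ranks 12 and 43 in every library, whereas Cdc20 is the only row that is darker in both 0 h libraries than in all 6 PHx libraries.

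The first comparison asked whether mitotic promoters differed 48 h after PHx, near the peak of hepatocyte division, from undamaged liver. With limma's moderated test on −log2 rank and Benjamini-Hochberg adjustment over all 13200 coding promoters, 0 of 46 members passed an adjusted p of 0.05, and 6 of the coding promoters did (0.0455%). At an unadjusted p under 0.05 there were 7 members, 1 stronger and 6 weaker, against 12.5% of all coding promoters. In bulk nuclei, a promoter open in fewer cells and one less open in each cell cannot be told apart.

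The members as a group sat lower on the list at 48 and 72 h. The median log2 strength difference, positive where the promoter ranked nearer the top after PHx, was −0.52 at 48 h, −0.66 at 72 h and −0.29 at 96 h. Without 96 h replicate 1 that last median turned to 0.28. All coding promoters together moved by −0.20, −0.24 and −0.09, in lists of unequal length. With each rank divided by the length of its list, the medians over coding promoters were −0.0455, 0.11 and 0.14, so their direction turned at 72 and 96 h, and those of the members were −0.37, −0.31 and −0.0602. Relative to all coding promoters, the members' medians were −0.32, −0.42 and −0.20 by rank, and list length cannot change these. With 1 library left out, the relative medians by rank ran from −0.42 to −0.20 at 48 h, −0.48 to −0.25 at 72 h and −0.38 to 0.29 at 96 h. With all libraries, the relative medians were smaller by rank among coding promoters, at −0.14, −0.27 and −0.0959, and by fold enrichment, at −0.19, −0.18 and −0.11. By sign alone, 40 of 46 members were lower at 48 h, 42 at 72 h and 29 at 96 h, against 60.02%, 63.4% and 56.1% of coding promoters. By percentile the lower members were 37, 32 and 24, against 52.5%, 43.7% and 41.0%. The 3 time points were set against the same 0 h libraries and share their deviations.

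**Figure D2:**
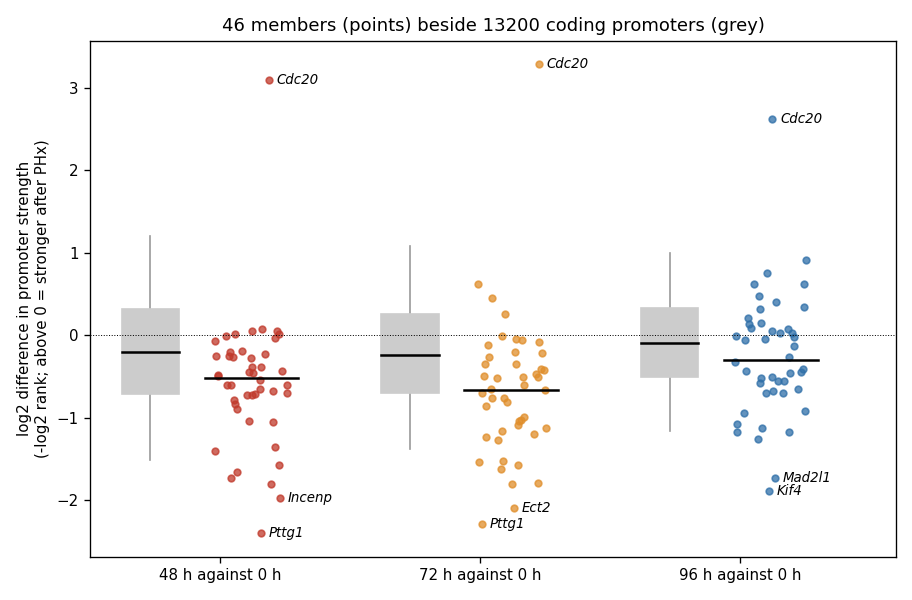
Log2 difference in promoter strength (−log2 rank, vertical axis) between each PHx time point and 0 h for the 46 members (points, black line at their median) beside the 13200 coding promoters (grey box from the 25th to the 75th percentile, whisker from the 5th to the 95th, black line at the median). The members' medians of −0.52, −0.66 and −0.29 lie below those of all coding promoters, and Cdc20 lies apart above at 3.09, 3.29 and 2.63.

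Counting only promoters whose 2 libraries at a time point both ranked lower than both 0 h libraries gave 20 of 46 members at 48 h (43.5%, against 29.2% of coding promoters), 26 at 72 h (56.5% against 32.2%) and 12 at 96 h (26.1% against 19.9%). Both libraries ranked higher than both at 0 h in 1 member at 48 h (2.17% against 16.2%), 3 at 72 h (6.52% against 14.6%) and 2 at 96 h (4.35% against 13.6%). With ranks taken only among coding promoters, which removes the general shift, the members lower were 13 (28.3% against 22.1%), 18 (39.1% against 22.6%) and 11 (23.9% against 16.9%), and those higher were 1 (2.17% against 21.6%), 3 (6.52% against 20.7%) and 4 (8.70% against 16.6%). The excess of lower members at 48 h was thus smaller on that scale, and the share of higher members was below that of coding promoters at all 3 times. The 96 h counts rest on replicate 1: without it, by rank among all intervals, 22 members were higher (47.8% against 35.5%) and 15 lower (32.6% against 35.7%), so both directions turned. By fold enrichment over the library median, 19 members were lower and 5 higher at 48 h (17.6% and 25% of coding promoters), 22 and 3 at 72 h (18.2% and 22.2%), and 12 and 5 at 96 h (14.7% and 17.9%). By percentile within the list they were 13 and 1 (22.8% and 19.7%), 17 and 4 (17.2% and 25.3%), and 8 and 4 (12.4% and 21.5%).

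**Figure D3:**
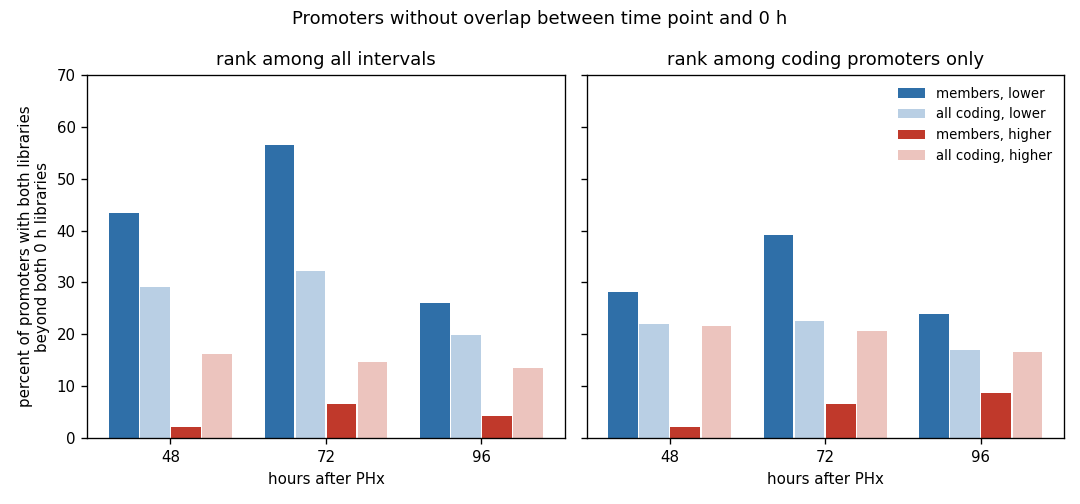
Percent of promoters whose 2 libraries at a time point both lie beyond both 0 h libraries, lower (blue) or higher (red), for the 46 members (dark bars) and the 13200 coding promoters (pale bars), by rank among all intervals (left) and by rank among coding promoters (right). At 72 h 56.5% of members are lower on the left panel and 39.1% on the right, and the dark red bars stay under the pale red bars in both.

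Cdc20 (chr4:118432901-118437352, minus strand, mm10) went the other way from most members. Its promoter interval, with its summit at −156 bp from the TSS, ranked 18646 and 46738 at 0 h, 3533 and 3379 (48 h), 5248 and 1743 (72 h), then 7692 and 2973 (96 h). Every PHx library ranked it above both 0 h libraries, which held for 4.14% of coding promoters and for no other member. The log2 strength difference was 3.09 (SE 0.717, adjusted p = 0.113, limma) at 48 h, 3.29 (adjusted p = 0.176) at 72 h and 2.63 (adjusted p = 0.637) at 96 h. By size these placed Cdc20 11th, 8th and 8th among the 13200 coding promoters in the direction of higher rank, and none passed the adjusted threshold.

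On the authors' own fold enrichment over local background, the Cdc20 interval had 10.7 and 6.10 at 0 h, 11.0 and 12.2 (48 h), 15.6 and 17.6 (72 h), then 14.2 and 18.2 (96 h). The 0 h replicate 1 and 48 h replicate 1 values were close, but coding promoters as a whole had a median of 11.2 in the former and 8.10 in the latter. Divided by those library medians, Cdc20 stood at 0.951 and 0.534 at 0 h, and between 1.36 and 1.77 in the PHx libraries. The difference at 48 h was 0.96 on the log2 fold enrichment scale (SE 0.234, adjusted p = 0.263, limma) and 2.01 by rank among coding promoters (adjusted p = 0.279). The 2 libraries at 0 h differed from each other by more than any PHx pair did on the fold enrichment scale. On the rank scale, leaving out 0 h replicate 2 gave a 48 h difference of 2.43, and leaving out its partner gave 3.76. Leaving out either 96 h library brought the adjusted p at 48 h to 0.0312 or 0.0278, and at 72 h to 0.0328 or 0.0310; these were the settings in which Cdc20 passed. Without replicate 1 or 2 at 96 h the calls among all coding promoters also rose, from 6 to 48 or 47 at 48 h and from 0 to 6 or 5 at 72 h.

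In the same role group Pttg1, Ube2c and Espl1 ranked lower without overlap at 48 and 72 h, where 29.2% and 32.2% of coding promoters did. At 96 h 2 of these, Ube2c and Espl1, did (19.9% of coding promoters). Pttg1, which encodes securin, the inhibitor of separase that Cdc20 marks for destruction (chr11:43420250-43426251, minus strand), ranked 2503 and 5217 at 0 h, 13996 and 25847 (48 h), 27349 and 11295 (72 h), then 13880 and 4739 (96 h). Libraries at 48 and 72 h lay wholly below those at 0 h, and at 96 h replicate 2 overlapped them. The log2 strength difference at 48 h was −2.40 (SE 0.665, adjusted p = 0.155, limma), the lowest of any member. Ube2c, the ubiquitin-conjugating enzyme of the APC/C, ranked 8858 and 9528 at 0 h, 18880 and 54639 (48 h), 26685 and 25915 (72 h), then 26750 and 11212 (96 h). Its 48 h libraries lay far apart, yet both ranked below both 0 h libraries, with a difference of −1.81 (SE 0.568, adjusted p = 0.196, limma). Without 48 h replicate 2 it was −1.04, and without replicate 1 it was −2.57. Espl1, separase itself, ranked 33238 and 26379 at 0 h and between 40714 and 46542 in all PHx libraries, a narrow band below both 0 h values.

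**Figure D4:**
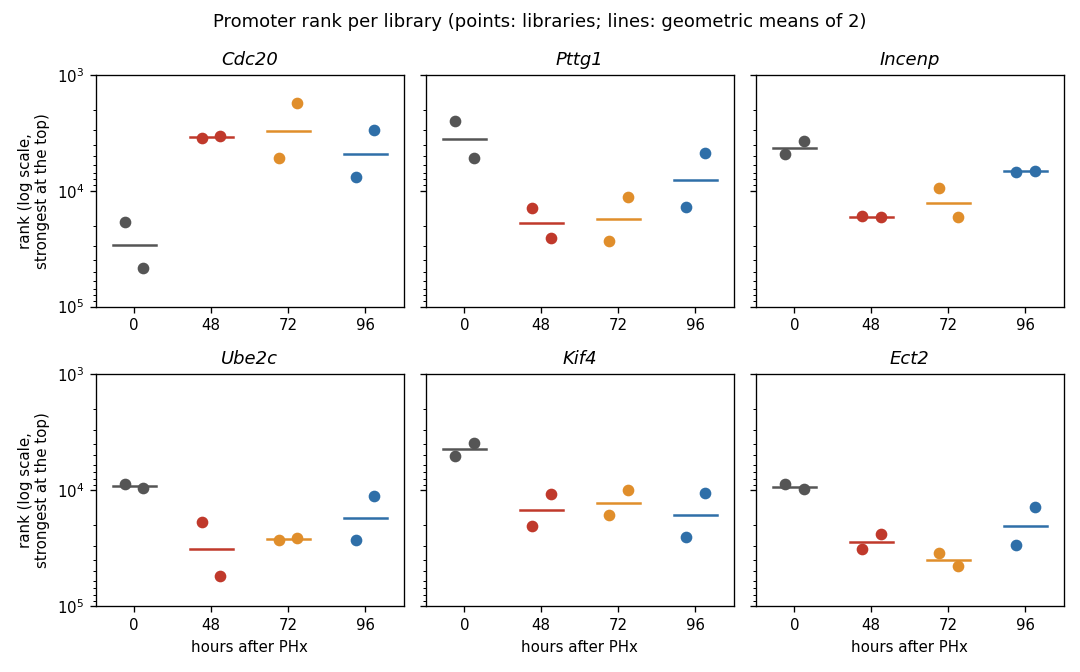
Rank of the promoter interval (logarithmic axis, strongest at the top) in each library (points) at each of the 4 time points for 6 genes, with the geometric mean of the 2 libraries as a line. Cdc20 ranks at 18646 and 46738 at 0 h and between 1743 and 7692 after PHx, and Pttg1, Incenp, Ube2c, Kif4 and Ect2 sit lower at 48 h than at 0 h without overlap.

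In the chromosomal passenger complex, which corrects chromosome attachment and guides cytokinesis, 3 of 4 members ranked lower without overlap at 48 h (29.2% of coding promoters did) and 3 at 72 h (32.2%). Incenp, its scaffold (chr19:9872296-9899551, minus strand), ranked 4836 and 3743 at 0 h, 16521 and 16960 (48 h), 9475 and 16991 (72 h), then 6895 and 6728 (96 h). The 48 h pair was tight, and the difference was −1.98 (SE 0.623, adjusted p = 0.198, limma). By 96 h the interval stood between the 0 h and the 48 h values. Cdca8, which encodes borealin, had a 48 h difference of −1.40 (adjusted p = 0.318, limma), but its promoter interval also lies within 1 kb of the TSS of 9930104L06Rik and cannot be assigned to one of them. Leaving out 0 h replicate 1 gave −1.94, and leaving out its partner gave −0.86.

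In cytokinesis the largest difference at 48 h was that of Ect2, the exchange factor that activates RhoA at the cleavage site (chr3:27097222-27153878, minus strand). It ranked 8838 and 9827 at 0 h, 31914 and 23943 (48 h), 34847 and 45340 (72 h), then 29802 and 13781 (96 h). No PHx library reached either 0 h library. The interval of 72 h replicate 1 (chr3:27153170-27153548) overlapped that of 0 h replicate 2 but not that of replicate 1. The difference was −1.57 at 48 h (SE 0.524, adjusted p = 0.228, limma) and −2.09 at 72 h (adjusted p = 0.210). Racgap1, the partner that positions Ect2, was lower without overlap at 48 and 72 h but not at 96 h. Anln, the actin-binding scaffold anillin, ranked 2346 and 10853 at 0 h, 5478 and 10784 (48 h), 6095 and 10544 (72 h), then 3983 and 10010 (96 h). Its 2 libraries differed more at 0 h than the time points did. Kif20a and Kif23, kinesins of the central spindle, also overlapped at each time.

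Of the spindle proteins, Kif4, a chromokinesin that works with Prc1 on the midzone, was lower in every PHx library. It ranked 5010 and 3915 at 0 h, 20245 and 10687 (48 h), 16419 and 10019 (72 h), then 25486 and 10505 (96 h). The differences were −1.73, −1.53 and −1.89, with adjusted p = 0.258, 0.428 and 0.883 (limma), and the last was −1.25 without 96 h replicate 1. The interval lies near the TSS of Pdzd11 as well. Prc1, the crosslinker of midzone microtubules, ranked 3079 and 3867 at 0 h, 3364 and 4569 (48 h), 7774 and 4992 (72 h), then 4901 and 12392 (96 h), so that separation from 0 h was seen at 72 and 96 h only. Kif11, the motor that pushes spindle poles apart, ranked 9770 and 14962 at 0 h, 44729 and 7481 (48 h), 8369 and 7380 (72 h), then 7382 and 14809 (96 h). It was 1 of the 3 members higher at 72 h, and its 48 h libraries lay further apart than those of any other time.

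Chromosome structure genes gave 3 of 7 members lower at 48 h (Top2a, Smc2 and Smc4), where 29.2% of coding promoters were, and 4 at 72 h, where 32.2% were. Smc4, a condensin core subunit, ranked 8817 and 4699 at 0 h, 18690 and 9488 (48 h), 14508 and 16674 (72 h), then 4340 and 9185 (96 h). The 96 h libraries overlapped those at 0 h, and the interval is shared with the TSS of Ift80. Ncapg, a condensin subunit, had the strongest promoter of the group at 0 h, with ranks of 2025 and 3077, then 2367 and 8331 (48 h), 6042 and 2938 (72 h), then 11697 and 1321 (96 h). These overlapped throughout. Mki67, which encodes the proliferation marker Ki-67, also overlapped at every time and ranged from 11201 to 31297.

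Among the regulators of entry into mitosis, Cdc25c, a phosphatase that activates Cdk1, ranked 9022 and 7766 at 0 h, 11077 and 26631 (48 h), 26051 and 25397 (72 h), then 22474 and 11541 (96 h). All PHx values lay below both 0 h values, and the difference was largest at 72 h, at −1.62 (SE 0.575, adjusted p = 0.377, limma). Cdk1 was lower without overlap at 48 h only, and Ccnb1, Ccnb2 and Cdc25b were not lower without overlap at any time. Both transcription factors were lower at 48 h (29.2% of coding promoters). Mybl2 (B-Myb) ranked 2620 and 1471 at 0 h, 2983 and 8383 (48 h), 2328 and 2209 (72 h), then 2215 and 1526 (96 h), so it was separated at 48 h and inside the 0 h range later. Foxm1, whose interval also lies near the TSS of Rhno1, had a difference of −0.89 at 48 h (−0.46 without 48 h replicate 1) and −1.78 at 72 h (adjusted p = 0.364, limma). Plk1, the polo-like kinase that promotes mitotic entry and spindle assembly, ranked 5918 and 10874 at 0 h, 15692 and 10383 (48 h), 9597 and 4666 (72 h), then 10771 and 3064 (96 h), and overlapped each time.

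Most kinetochore promoters overlapped at 48 h. Of 7 members, 1 (Cenpa, the centromeric histone) was lower at 48 h and 4 at 72 h, beside 29.2% and 32.2% of coding promoters, while Spc25, an Ndc80 complex subunit, was higher at 72 and 96 h, as were 14.6% and 13.6%. Cenpf, a kinetochore protein, ranked 996 and 1184 at 0 h, 938 and 3346 (48 h), 1045 and 2271 (72 h), then 1183 and 420 (96 h). Of the 4 checkpoint members, Bub1 and Mad2l1 were lower at 48 h, and Bub1b and Ttk at 72 h, again beside those shares of 29.2% and 32.2%. In 72 h replicate 1 the strongest Bub1 interval (chr2:127832845-127833083) overlapped neither 0 h interval, so its rank there is that of another interval; in the other 45 members every PHx interval overlapped one at 0 h.

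Members that were lower at 72 h but not at 48 h also included Ncaph (a condensin subunit), Aurka (the spindle pole kinase), Cenpe (a kinetochore motor), Nuf2 and Spc24 (subunits of the Ndc80 complex), Kif2c (a microtubule depolymerase) and Tpx2 (an activator of Aurora A). For Aurka the interval also lies near the TSS of Cstf1. Of the 46 members, 13 (28.3%, near the 27.2% of coding promoters) overlapped with 0 h at every time: Anln, Aurkb, Ccnb1, Ccnb2, Cdc25b, Cenpf, Kif20a, Kif23, Mki67, Ncapd2, Ncapg, Ndc80 and Plk1.

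Across all PHx libraries, 9 of 46 members (Birc5, Ccna2, Cdc25c, Ect2, Espl1, Incenp, Kif4, Top2a and Ube2c; 19.6%) ranked lower in all 6 than in both at 0 h, against 7.7% of coding promoters. Those that kept this order by percentile within the list, by rank among coding promoters and by fold enrichment were 4: Cdc25c, Ect2, Espl1 and Kif4 (8.70%, against 1.68% of coding promoters). On each of these scales Cdc20 was the 1 member higher in all 6 (2.17%), against 6.92% of coding promoters by percentile, 5.75% by rank among coding promoters and 6.38% by fold enrichment.

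Between 48 and 72 h and between 48 and 96 h, 0 members passed an adjusted p of 0.05 (limma), and 0% of coding promoters did in either comparison. At an unadjusted p under 0.05 there were 0 members in the former (6.13% of coding promoters) and 2 in the latter, Incenp and Tpx2, both stronger at 96 h (7.9% of coding promoters). For 72 h and 96 h against 0 h, limma likewise called 0 members, with 0% and 0.00758% of coding promoters called. At the unadjusted threshold the members were 10 at 72 h (1 stronger, 9 weaker; 9.86% of coding promoters) and 3 at 96 h (1 stronger, 2 weaker; 5.28%).

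The 96 h libraries did not give one answer for these genes. Members had a median rank of 13531.5 in replicate 1 and 6981 in replicate 2, and 37 of 46 were stronger in replicate 2. The median gap between the replicates was 1.04 log2 units over the members and 0.156 over all coding promoters, both towards replicate 2. At 0, 48 and 72 h the members split 23 to 22, 25 to 21 and 25 to 21 between the replicates. The members' median difference from 0 h was 0.28 without 96 h replicate 1 and −0.58 without replicate 2, so its direction at 96 h depended on the library. At 96 h the 50000th interval had a −log10 p of 14.5 in replicate 1 and 8.29 in replicate 2. At 0 h, where the members split 23 to 22, it was 15.2 and 9.96. A link between interval significance and the split of the members was not tested.

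Beyond promoters, 88 other regions lay over the 46 genes and their flanks among the 50000 strongest intervals, and 8 members had none. Of these, 42 were in flanks, 23 at the TSS of another gene, 10 in introns, 10 in coding exons, 2 at an alternative TSS of the gene itself and 1 in a noncoding exon. Each library held 53 to 64 of the 88, and 33 were in all 8. A region was gained when present in both libraries of a time point and in neither at 0 h, and lost in the reverse case. There were 4 gained and 5 lost at 48 h, against 2.83% and 3.77% of all 59414 gene-region pairs; 3 gained and 4 lost at 72 h, against 2.8% and 3.05%; and 4 gained and 3 lost at 96 h, against 2.13% and 2.77%. Intervals tied at the limit were taken in file order up to 50000. With ties included, a choice added after seeing the data, 3 were gained at each time, and those lost were 4 (48 h), 5 (72 h), then 3 (96 h), against 2.81%, 2.69% and 2.23% of all pairs gained and 3.74%, 3.10% and 2.68% lost. An intronic region of Kif4 (chrX:100707983-100708593) counted as lost at 48 h was tied at the limit, with a rank of 49145 in 48 h replicate 1 and 50501 in replicate 2.

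A flank region of Kif23 (chr9:61907009-61907295) was gained at all 3 times. Its rank was 59245 and 61003 at 0 h, 48910 and 45127 (48 h), 29152 and 48194 (72 h), then 45533 and 34944 (96 h), so it crossed the limit of 50000 from just outside it. Introns of Ect2 (chr3:27118304-27118553) and Foxm1 (chr6:128369988-128370509) held regions lost at 48 and 72 h. The Ect2 region ranked 40497 and 44383 at 0 h, was not listed in 48 h replicate 1, and had 109302 in replicate 2, 65461 and 57741 at 72 h, and 31691 and 18886 at 96 h. It was thus again among the strongest 50000 in both 96 h libraries. An intronic region of Kif11 (chr19:37419671-37419924) was gained at 48 and 96 h, with ranks of 40714 and 36661 at 48 h and 36551 and 45781 at 96 h against 81649 and no interval at 0 h.

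Other genes of the same processes, taken from lists of complex subunits, had 0 calls by limma at any time. Their counts at 48 h are over genes with an interval in all 8 lists, and stand beside the 29.2% of coding promoters that ranked lower and the 16.2% that ranked higher without overlap. Of the 17 genes of the APC/C list, 6 ranked lower without overlap (35.3%) and 0 higher, and of 32 other kinetochore and checkpoint genes 15 were lower (46.9%) and 4 higher (12.5%). Spindle and cytokinesis genes outside the members gave 11 lower (29.7%) and 3 higher (8.11%) of 37. Cohesin genes were the most mixed, with 5 lower (33.3%) and 4 higher (26.7%) of 15 and a median log2 strength difference of 0.11. The MuvB, DREAM and NF-Y genes gave 4 lower (33.3%) and 1 higher (8.33%) of 12. Within these lists the most negative differences belonged to Cenpc1 (CENP-C, the platform of the inner kinetochore), at −3.59 (adjusted p = 0.0921, limma), and Cenpu, at −3.44 (adjusted p = 0.147). Cenpc1 ranked 541 and 501 at 0 h, 4709 and 8333 (48 h), 2103 and 4052 (72 h), then 2725 and 752 (96 h), so its 96 h libraries, too, lay below both 0 h libraries.

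For DNA replication genes, active earlier in the cycle, 15 of 34 ranked lower at 48 h (44.1%, against 29.2% of coding promoters). At 72 h 16 did (47.1% against 32.2%), and at 96 h 6 did (17.6% against 19.9%). Of the 34, 0 ranked higher at any of these times (16.2%, 14.6% and 13.6% of coding promoters did). Their median differences of −0.40, −0.57 and −0.32 stood beside the members' −0.52, −0.66 and −0.29, and the difference between the lists was not tested. Of 7 G1 cyclin and kinase genes, 3 were lower (42.9% against 29.2% of coding promoters) and 2 higher (28.6% against 16.2%) at 48 h. Of the 6 hepatocyte markers in all 8 lists, 4 were lower at 48 h (66.7% against 29.2%), 5 at 72 h (83.3% against 32.2%) and 2 at 96 h (33.3% against 19.9%). At 48 h 0 of these markers were higher (16.2% of coding promoters). Stellate cell markers in all lists gave 0 lower and 2 higher of 3 at 48 h, beside 29.2% and 16.2% of coding promoters. The part of the stellate cell markers in the members' values was not tested.

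Some members, not all, held the motifs printed above near the promoter summit. In 200 bp centred on the promoter summit, the CHR (TTTGAA on either strand) occurred in 12 of 46 members (26.1%) and in 4.46% of the 13200 coding promoters, and the CCAAT box in 29 (63.0%) and 24.5%. Of the 7 genes whose sequences are printed, Cdk1 and Mki67 held a CHR in this window, though not the match in capitals. Ube2c and Espl1 held a CCAAT box alone, and Cdc20, Top2a and Kif11 held neither motif. The CHR in capitals lies outside the window in all 7 genes, and so does the box in capitals in Ube2c. All 12 with a CHR also held a CCAAT box, a combination found in 1.45% of coding promoters. The Sp1 motif GGGCGG was found in 32 members (69.6%) against 61.2%, an E2F motif (spelled TTGGCGC, with the variant TTCCCGC and the further variant TTCGCGC counted too) in 3 (6.52%) against 11.1%, and the forkhead motif TGTTTAC in 1 (2.17%) against 1.40%. An E2F match that starts with TTGG can overlap a CCAAT box on the other strand. Members' summits lay at a median of −84 bp from the TSS and 38 of 46 were upstream (82.6%), against −10 bp and 54.9% for coding promoters, and their median GC content was 62.75% against 66.5%.

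RefSeq promoters, from 250 bases before to 50 after the start, were found for 37 members. In 34 of these the window overlapped the promoter interval of all 8 libraries and in 2, Ect2 and Bub1, that of 7, whereas that of Kif2c lay 2773 bp from the nearest interval ranked here. The CHR was in 27 of the 37 (73.0%), Kif2c among them, and in 17.9% of 32851 promoters in the table, and the CCAAT box in 28 (75.7%) and 37.4%. A CCAAT box followed by a CHR within 60 bases occurred in 19 members (51.4%) and in 1.98% of all promoters, with a median of 27 bases and a range of 4 to 46 between the motifs of the pair chosen as for the stretches above, by the CHR nearest the start. CHR matches began at a median of −5 bases from the start and CCAAT boxes at −67.5. In the same windows the Sp1 motif was in 31 members (83.8%) and 35.7% of all promoters, the forkhead motif in 2 (5.41%) and 3.65%, and the E2F motifs in 7 (18.9%) and 8.07%. These shares are over another set of promoters than those of the summit windows, and no test was made of either. At 48 h 8 of the 19 members with this arrangement were lower without overlap, as were 7 of the 18 without it, beside 29.2% of coding promoters. Lower in all 6 PHx libraries were 5 of the 19 and 1 of the 18, beside 7.7%, and these differences were not tested. Cdc20, higher in all PHx libraries, was among the 19, with 30 bases between its CCAAT box and its CHR, as were Ect2, Espl1, Kif4, Top2a and Ube2c, lower in all of them. Pttg1 and Mad2l1 held neither motif in these RefSeq windows, and Pttg1 held a CCAAT box in its summit window.

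**Figure D5:**
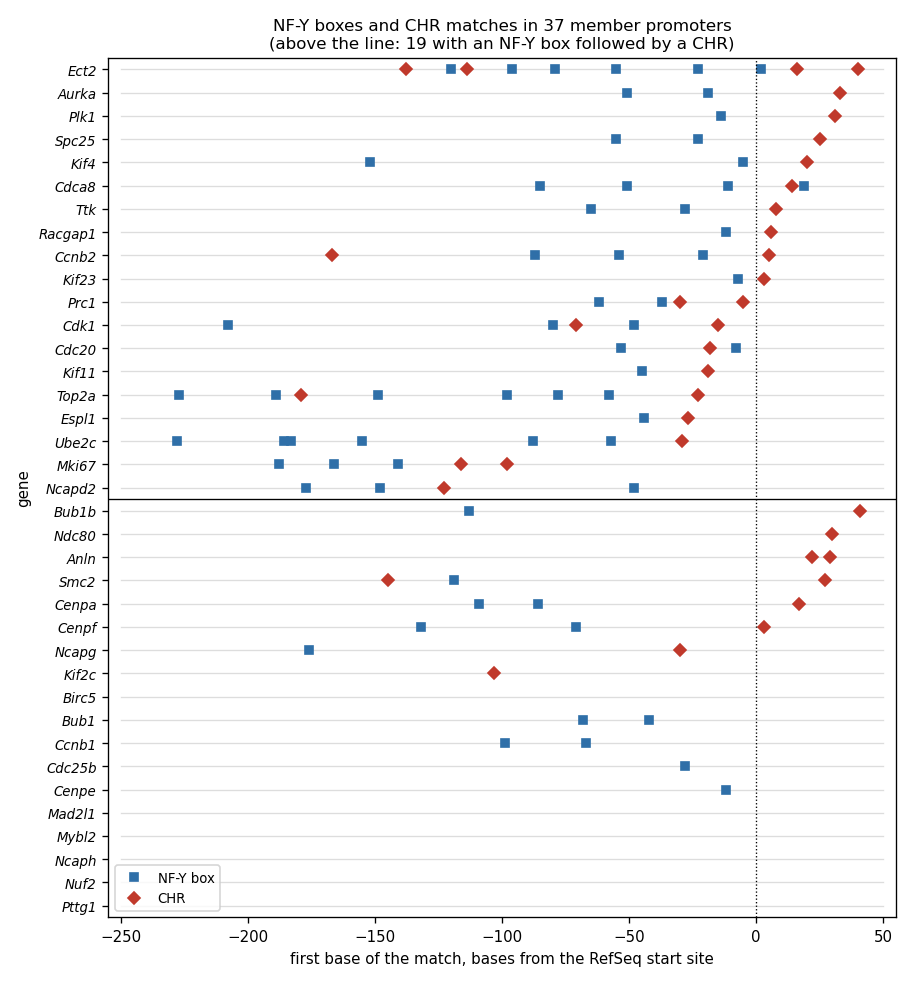
Position of NF-Y boxes (the CCAAT box, blue squares) and of the CHR (red diamonds) in the RefSeq promoters of 37 members, as the distance of the first base of each match from the start site in bases. The 19 promoters above the line have an NF-Y box followed by a CHR within 60 bases, and in Cdc20 the CHR begins at −18.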

How the data were processed

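The authors processed each library with the ENCODE ATAC-Seq pipeline, which trimmed reads, aligned them to mm10 with Bowtie2, removed duplicates and called peaks with MACS2, per library and without pooling; versions are not given in the sources used here. For each peak the deposited lists hold the peak caller's fold enrichment (a ratio to the local level), its −log10 p, its −log10 q and a summit offset. The deposited score was not used. The lists hold no counts, so depth is unknown, no confidence intervals are given, and the count test of the study (TCseq) could not be run.

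Lines with the same interval were collapsed to the highest −log10 p and ranked within the library, ties sharing a rank. TSS came from GENCODE M21 basic, coding genes only for tests. Promoter intervals lay within 1 kb of a TSS. Tests were limma 3.58.1 (R 4.3.3; eBayes with trend) on −log2 rank over the 13200 coding genes listed in all 8 libraries, all 4 time points sharing 1 spread, with Benjamini-Hochberg adjustment and a threshold of 0.05. With 2 against 2 libraries an exact permutation test cannot go below 0.333. The study describes primary hepatocytes from 4 mice at each of the 4 time points, and biological replicates from separate hepatocyte preparations at 0 and 48 h. The labels do not tie these libraries to mice, so p-values measure the spread between libraries, part of which may be technical. The procedure was tested on simulated data with 200 shifted promoters. Other regions were consensus regions of the 50000 strongest intervals per library, merged where they overlapped by at least 1 bp, with ties at the limit taken in file order.

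Motifs were sought on both strands. RefSeq promoter sequences on GRCm38.p6 were matched by symbol for 37 members; Incenp, Kif20a, Aurkb, Smc4, Spc24, Foxm1, Tpx2, Cdc25c and Ccna2 were not matched. The members were listed by role with no value in the rule, but they and all gene lists, including the cell type markers, were chosen with earlier results of these data known. Values per library are given for the largest differences at 48 h, for the strongest promoter and the largest difference in each of the 10 role groups, and, chosen after their values were seen, for Ube2c, Kif11 and the ranges of Espl1, Aurkb, Ccnb2 and Mki67. Alternatives were the percentile, rank among coding promoters, fold enrichment, a window of 500 bp, summits within 1 kb, q under 0.05, no filter on absent promoters, a replicate block and leaving out each library, and for regions the 25000 strongest or all intervals and a cover of 50% and, added after seeing the data, ties at the limit included.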

Additional observations from a re-analysis of the deposited data

How the results depend on the processing

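Limma called 0 members at any time under the percentile, rank among coding promoters, fold enrichment, the narrower window, the summit rule, the q limit, no filter and the replicate block, and 0 to 1 when a library was left out for 48 h and for 72 h against 0 h (Cdc20, without either 96 h library, where calls over all coding promoters rose from 6 to 47 or 48 at 48 h and from 0 to 5 or 6 at 72 h) and 0 to 0 for 96 h against 0 h, 72 h against 48 h and 96 h against 48 h. Differences between replicates 1 and 2 correlated little between time points (from −0.0857 to 0.116), and whether same-numbered libraries shared a batch is unknown. With the replicate block Cdc20 at 48 h had adjusted p = 0.135 (limma). Over its alternatives that kept all libraries, the adjusted p of Cdc20 at 48 h was 0.105 to 0.279. The members' median difference was −0.146 at 48 h and −0.286 at 72 h by rank among coding promoters, and −0.168 at 72 h by fold enrichment. Leaving out single libraries gave −0.56 to −0.44 at 48 h, −0.74 to −0.49 at 72 h and −0.58 to 0.28 at 96 h. Members ranked lower without overlap at 48 h were 13 by percentile and 13 by rank among coding promoters, and 17 at 72 h by percentile. Members ranked higher were 5 at 48 h by fold enrichment, and at 96 h 4 by percentile, 4 by rank among coding promoters and 5 by fold enrichment. With 1 library left out, the lower members were 20 to 32 at 48 h, 26 to 36 at 72 h and 12 to 31 at 96 h (31 without 96 h replicate 2), and the higher ones 1 to 7, 3 to 7 and 2 to 22 (22 without 96 h replicate 1); an arm of 1 library overlaps less by construction, and the shares of coding promoters moved too, to between 29.2% and 47.5%, 32.2% and 48.7%, then 19.9% and 45.7% lower, and between 16.2% and 31.0%, 14.6% and 27.8%, then 13.6% and 35.5% higher. The 31 lower (67.4%) stood against 45.7% of coding promoters and the 22 higher (47.8%) against 35.5%, and the shares of lower members fell under those of coding promoters at 96 h without 96 h replicate 1 (32.6% against 35.7%) and without 0 h replicate 1 (34.8% against 37.2%). Other regions gained and lost at 48 h were 1 and 1 of 46 among the 25000 strongest intervals (3.90% and 4.56% of all pairs) and 10 and 11 of 322 among all (1.17% and 1.95%); at 72 h 11 were gained among all intervals (2.89%) and 0 lost among the 25000 strongest (3.46%); at 96 h gained regions were 0 and 2 (2.603% and 1.57%). Left-out libraries gave 4 to 8 gained and 5 to 11 lost at 48 h, 3 to 6 and 4 to 10 at 72 h, and 4 to 9 and 3 to 8 at 96 h, while the shares of all pairs ranged from 2.86% to 8.76% gained and 3.81% to 9.71% lost (48 h), 2.84% to 8.11% and 3.11% to 9.04% (72 h), then 2.16% to 7.52% and 2.81% to 8.52% (96 h). The cause of these changes was not tested, and no read depth is available to set a limit of detection.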

Other observations

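The promoter interval of Cdc20 was narrower in both 48 h libraries, at 438 and 450 bp, than in the other 6, at 586 to 715 bp, while its rank there was 3533 and 3379. Its −log10 p was 44.6 and 11.0 at 0 h, 45.5 and 52.9 (48 h), 78.5 and 107 (72 h), then 63.2 and 67.7 (96 h). For 8 members (Smc4, Ncapd2, Cdc25b, Foxm1, Aurka, Cdca8, Kif4 and Kif20a) the promoter interval also lay within 1 kb of the TSS of another coding gene (Ift80, Mrpl51, Spef1, Rhno1, Cstf1, 9930104L06Rik, Pdzd11 and Brd8), so its rank belongs to both genes.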
